A study of Mus musculus with 5 samples.

Results

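The genes of 10 inflammatory chemokines were followed across 5 mouse arrays: Cxcl1, Cxcl5, Cxcl9, Cxcl10, Cxcl11, Ccl2, Ccl7, Ccl3, Ccl4 and Ccl5. Every probe set whose platform annotation gives exactly 1 symbol was searched for these names, and each of the 10 genes had 1 probe set, out of 23521 single-symbol probe sets for 22180 genes. The arrays were hybridised with RNA from fibroblasts of mouse embryos, labelled as primary cells, that lack endogenous STING (STING-/-) and were reconstituted with the R284S variant, a gain-of-function form of this adaptor of cytosolic DNA sensing. The 5 groups are cells exposed for 9 hours to vehicle, Compound C (an inhibitor of AMPK and of BMP type I receptors), doxorubicin (an anthracycline that poisons topoisomerase II), GSK 690693 (an inhibitor of AKT kinases that also acts on AMPK) or tofacitinib (an inhibitor of JAK kinases). All 5 groups share the STING deletion and the R284S variant. The sources used here do not state how the variant was introduced, the number of clones, the doses or the mouse strain, and cells without the variant were not analysed here. The series title puts the question whether AMPK inhibition can lower inflammation driven by STING, so the comparison of interest is each compound with vehicle.

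Chemokines are small secreted proteins that bind glycosaminoglycans and G protein-coupled receptors on leukocytes and direct their migration. Their names give the spacing of the first cysteines, CXC with a residue between them and CC without. STING recruits the kinase TBK1, which activates IRF3 and leads to NF-kB activity, and both factors act on chemokine promoters. Interferon released in the process then acts through JAK kinases, STAT proteins and IRF9 on a further set that includes Cxcl9, Cxcl10 and Cxcl11. Fibroblasts are a known source of several of these ligands.

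Values are the deposited log2 signal per probe set. Each group is 1 array, so no difference has a replicate check and none was tested. In this bulk RNA, fewer producing cells and less RNA per cell cannot be told apart. A gene entered the comparison if at least 1 of its 5 values reached the median of its array, which lay between 5.37 and 5.44, and 12317 genes did, all 10 chemokines among them. Of the chemokines, 9 reached the median on 5 of 5 arrays, while Ccl3 did so on 3, those of vehicle, doxorubicin and tofacitinib. The closest pair of arrays, GSK 690693 and tofacitinib, differed with a standard deviation of 0.258 over the 12317 genes, and this serves as a yardstick, since it holds the noise and any effects between these arrays. Centring the arrays on their medians moved the median difference of all genes for tofacitinib from 0.09 to −0.08, and the numbers of genes at least 1.5-fold higher and lower from 328 and 246 to 67 and 600. The same step moved these numbers from 747 and 1230 to 945 and 1026 for Compound C and from 296 and 395 to 171 and 541 for GSK 690693. Among the chemokines, centring turned the sign of 6 differences, namely Cxcl5 with doxorubicin, GSK 690693 and tofacitinib, Ccl5 with Compound C and tofacitinib, and Ccl2 with tofacitinib, and each of the 6 was 0.14 or less in size before centring.

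Promoter windows were matched for 4 of the 10 genes in a table made from RefSeq on the build GRCm38.p6, each running from 250 bases before to 50 after the gene's start. Those of Cxcl10, Cxcl1 and Cxcl9 are shown because these CXC genes followed different patterns over the 5 arrays. They are written 5′ to 3′ on the gene's strand, and capitals mark every match to the motifs searched on both strands: the NF-kB consensus, the core of the interferon-stimulated response element (a pair of GAAA with any 2 bases between them), the AP-1 site TGANTCA and the gamma-activated site TTCNNNGAA.
Cxcl10 (chr5:92348840-92349139, minus strand): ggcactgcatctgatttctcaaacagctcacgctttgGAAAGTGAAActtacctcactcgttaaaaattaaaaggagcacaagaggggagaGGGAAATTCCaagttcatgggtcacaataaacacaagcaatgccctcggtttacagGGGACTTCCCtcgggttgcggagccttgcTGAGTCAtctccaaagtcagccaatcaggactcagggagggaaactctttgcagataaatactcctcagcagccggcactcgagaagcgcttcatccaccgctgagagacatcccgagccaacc
Cxcl1 (chr5:90890995-90891294, plus strand): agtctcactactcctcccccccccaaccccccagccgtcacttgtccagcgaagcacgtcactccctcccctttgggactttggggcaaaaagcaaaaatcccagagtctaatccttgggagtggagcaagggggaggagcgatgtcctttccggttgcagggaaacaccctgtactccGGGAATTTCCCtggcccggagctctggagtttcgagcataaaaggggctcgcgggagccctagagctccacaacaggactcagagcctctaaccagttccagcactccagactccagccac
Cxcl9 (chr5:92328030-92328329, minus strand): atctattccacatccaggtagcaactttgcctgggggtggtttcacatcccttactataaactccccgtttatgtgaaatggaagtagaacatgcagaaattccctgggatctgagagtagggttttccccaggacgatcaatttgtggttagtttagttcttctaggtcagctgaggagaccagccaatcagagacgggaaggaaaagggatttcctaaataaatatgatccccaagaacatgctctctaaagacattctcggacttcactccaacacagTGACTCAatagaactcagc

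The Cxcl10 window held the response element GAAAGTGAAA from base −213, NF-kB matches GGGAAATTCC from base −159 and GGGACTTCCC from base −103, and an AP-1 match from base −74, counted back from the start. In the Cxcl1 window the capitals are overlapping NF-kB matches on both strands, from bases −71 and −70. The Cxcl9 window had an AP-1 match from base 32 after the start and no match to the other motifs. The window of Ccl3 (chr11:83649329-83649628, minus strand) had no match to any of them. Of 32851 promoter windows of 300 bases, 4.51% held the NF-kB consensus, 3.44% the response element core, 7.81% the AP-1 site and 8.3% the gamma-activated site. A match describes the letters in the window and is not evidence of binding.

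With Compound C, 9 of the 10 chemokines read below vehicle, as did 6435 of all 12317 genes. Ccl5, among the 9 at −0.01, turned positive after centring. Of the 10, 4 were at least 1.5-fold lower, against 9.99% of all genes. They were Ccl4, Cxcl10, Ccl7 and Ccl2. No member was 1.5-fold higher, as 6.06% of all genes were, and 1 was at least 2-fold lower (2.52% of all genes). The member median was −0.39 and that of all genes −0.02. With GSK 690693, Cxcl11, Ccl4 and Ccl3 were at least 1.5-fold lower, 3 of 10 members against 3.21% of all genes. Of the members, 0 were higher (2.4% of all genes). Cxcl11 and Ccl4 were at least 2-fold lower, as were 0.601% of all genes. The member median was −0.33 against 0.04. Ccl4 passed 1.5-fold with both of these compounds, and the share of all genes that did so was not counted. Short of that threshold, Cxcl10 stood at −0.47 with GSK 690693 and Ccl3 at −0.39 with Compound C.

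**Figure D1:**
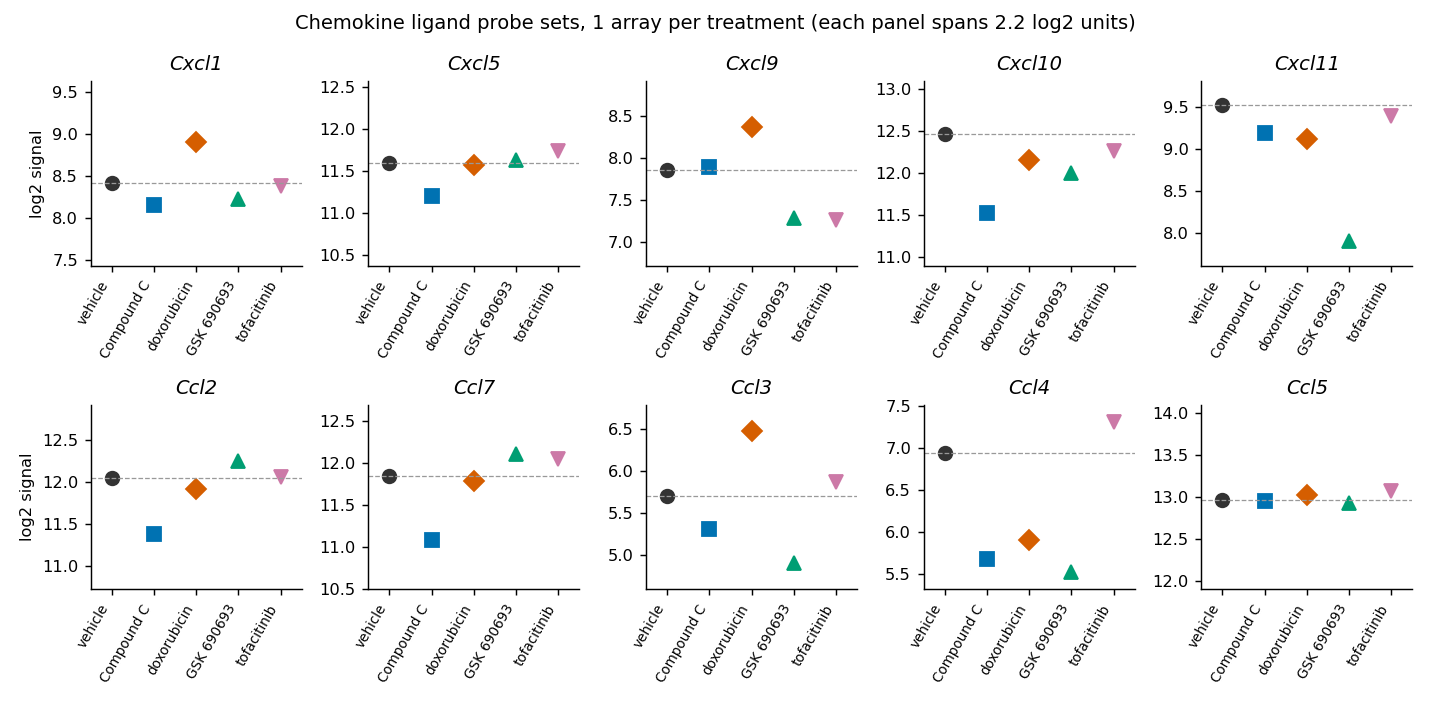
Log2 signal of the 10 chemokine probe sets (vertical axis, each panel spanning 2.2 log2 units) on the 5 arrays (horizontal axis), 1 point per array and no error because no group has a replicate. The dashed line marks vehicle. Compound C is the lowest point for Cxcl1, Cxcl5, Cxcl10, Ccl2 and Ccl7, GSK 690693 is the lowest for Cxcl11, Ccl3, Ccl4 and Ccl5, and Ccl5 spans only 0.14.

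With doxorubicin the members went both ways. Ccl3 was at least 1.5-fold higher, 1 of 10 against 11.5% of all genes, and Ccl4 was lower, 1 of 10 against 14.2%. Ccl4 was also past 2-fold, as were 6.45% of all genes. These shares lie near the background. The member median was −0.04 against 0.05 for all genes, and −0.04 became 0.02 after centring. With tofacitinib no member differed by more than 0.60 in size. Cxcl9 alone was at least 1.5-fold lower, 1 of 10 against 2% of all genes, and 0 members were higher (2.66%). The member median was 0.06 against 0.09 and turned to −0.11 after centring. All 4 comparisons share the vehicle array.

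**Figure D2:**
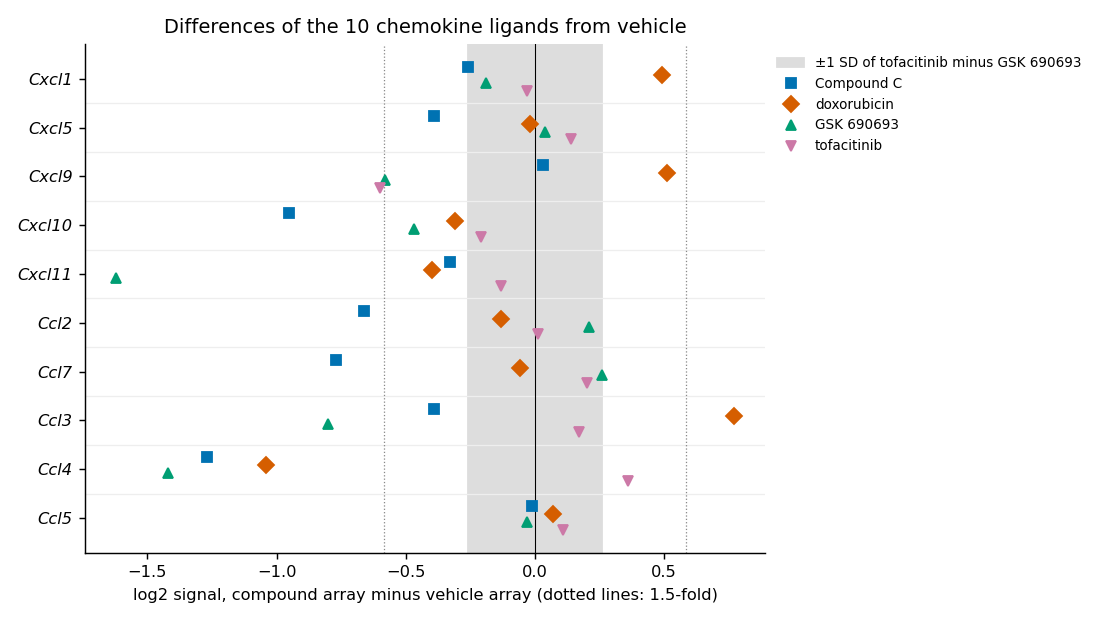
Log2 difference of each compound array from the vehicle array (horizontal axis) for the 10 chemokines (rows), with dotted lines at 1.5-fold and a grey band at 1 standard deviation (0.258) of the closest pair of arrays on either side of 0. Squares for Compound C lie left of the dotted line for Cxcl10, Ccl2, Ccl7 and Ccl4, and triangles for GSK 690693 for Cxcl11, Ccl3 and Ccl4.

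The ligands of CXCR3, a receptor of activated T cells and natural killer cells, did not share a pattern. Cxcl10 read 12.47 with vehicle, 12.26 with tofacitinib, 12.16 with doxorubicin, 12.00 with GSK 690693 and 11.52 with Compound C. Vehicle was the highest array and Compound C the lowest, 1.93-fold below vehicle, and all 4 compounds lay under vehicle. The step from GSK 690693 down to Compound C, 0.48, exceeded the yardstick, and the steps between vehicle, tofacitinib, doxorubicin and GSK 690693, from 0.10 to 0.21, did not. For the 58 genes of this brightness (mean log2 signal of 12 or more) the same pair of arrays had a standard deviation of 0.111, below the steps of 0.21 and 0.16. Of the 12317 genes, 359 read lower than Cxcl10 against vehicle with Compound C. Against the median of the other 4 arrays in place of vehicle, Cxcl10 stood at −0.69 with Compound C and at −0.21 with GSK 690693.

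Cxcl11 read 9.52 with vehicle, 9.39 with tofacitinib, 9.19 with Compound C, 9.12 with doxorubicin and 7.90 with GSK 690693. A single array stands apart here, that of GSK 690693, at 3.07-fold below vehicle, and the other 4 lie within 0.40 of each other. Only 4 of the 12317 genes had a lower difference with GSK 690693. The RefSeq table lists Cxcl11 of the reference mouse strain as a transcribed pseudogene, so its probe set reports a transcript that may not give protein in every strain. Cxcl9, the third CXCR3 ligand and known for its strong dependence on interferon gamma, read 8.37 with doxorubicin, 7.89 with Compound C, 7.86 with vehicle, 7.28 with GSK 690693 and 7.26 with tofacitinib. The AKT and JAK inhibitor arrays form the low pair, at −0.58 and −0.60 from vehicle, which puts GSK 690693 just short of 1.5-fold and tofacitinib just past it. Compound C, the array with the lowest Cxcl10, differed from vehicle by 0.03 in Cxcl9.

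Ccl2 and Ccl7 encode monocyte chemoattractants that act on CCR2, and their genes lie next to each other. Ccl2 read 12.26 with GSK 690693, 12.06 with tofacitinib, 12.05 with vehicle, 11.92 with doxorubicin and 11.39 with Compound C. Ccl7 read 12.11 with GSK 690693, 12.05 with tofacitinib, 11.85 with vehicle, 11.79 with doxorubicin and 11.08 with Compound C. The order of the 5 arrays was the same for both genes. Compound C alone stood apart, 1.58-fold below vehicle for Ccl2 and 1.71-fold for Ccl7, while the other 4 arrays followed each other in steps of at most 0.20, within the yardstick. For the 222 genes with a mean log2 signal from 11 to 12, which include both, the standard deviation of the closest pair was 0.187, slightly less than the step of 0.20 that occurs in each gene. Of the compounds that inhibit AMPK, Compound C differed from vehicle by −0.66 and −0.77 and GSK 690693 by 0.21 and 0.26. The latter 2 values lie within 0.262, the standard deviation of GSK 690693 minus vehicle over the 222 genes. Centring lowered them to 0.14 and 0.19, so a rise with GSK 690693 is not set apart from the spread of such genes. Set directly against Compound C, GSK 690693 was 1.83-fold higher for Ccl2 and 2.04-fold higher for Ccl7.

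Ccl3, Ccl4 and Ccl5 encode CC chemokines that attract macrophages and T cells. Ccl4 read 7.30 with tofacitinib, 6.94 with vehicle, 5.90 with doxorubicin, 5.67 with Compound C and 5.52 with GSK 690693. The arrays fall into a high pair and a low trio, with a gap of 1.04 between vehicle and doxorubicin. The low trio lies little above the array medians, at percentiles 58.1 (doxorubicin), 54.6 (Compound C) and 52.1 (GSK 690693) of single-symbol probe sets. Without a detection call it is unknown whether these values are above background, and whether a floor brings them together was not tested. Against vehicle, Ccl4 was 2.68-fold lower with GSK 690693, 2.41-fold with Compound C and 2.06-fold with doxorubicin. Because 3 of the compounds read low, the choice of reference matters. Against the median of the other 4 arrays the differences were −0.90 for GSK 690693, −0.75 for Compound C, −0.40 for doxorubicin, which is then short of 1.5-fold, and 1.51 for tofacitinib.

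Ccl3, the neighbour of Ccl4, read 6.47 with doxorubicin, 5.87 with tofacitinib, 5.70 with vehicle, 5.31 with Compound C and 4.90 with GSK 690693. Doxorubicin was the highest array for Ccl3, 1.71-fold above vehicle, and the third highest for Ccl4, below vehicle. GSK 690693 was the lowest array for both genes. The Ccl3 values with Compound C and GSK 690693 lie under the medians of their arrays, and without a detection call it is unknown whether they are above background, so that the 1.74-fold lower signal with GSK 690693 may understate the difference.

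Ccl5 read 13.07 with tofacitinib, 13.03 with doxorubicin, 12.96 with vehicle, 12.95 with Compound C and 12.93 with GSK 690693. The whole range of 0.14 compares with a median range of 0.64 over all genes, and with a standard deviation of 0.111 between the closest pair of arrays for the 58 genes of 12 or more. The median range was 0.13 over the 2 genes at least as bright as Ccl5, Ccl5 among them. The probe set sits at the top of the scale: of 41345 probe sets, 9 were brighter on the vehicle array, 11 each with Compound C and GSK 690693, 4 with doxorubicin and 1 with tofacitinib. The highest value of any probe set was between 13.14 and 13.18 on each array. A ceiling of the scale and an equal amount of transcript cannot be told apart for Ccl5.

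The brightest genes differed less in this comparison. The 95th percentile of the absolute difference between Compound C and vehicle was 0.87 for 4489 genes with a mean log2 signal from 5.4 to 7, 0.98 for 4650 genes from 7 to 9, 0.84 for 1877 genes from 9 to 11, 0.529 for 222 genes from 11 to 12 and 0.264 for 58 genes from 12 upwards. Cxcl10 and Ccl5 fall in the brightest group, and Cxcl5, Ccl2 and Ccl7 in the one below it. Of the 58 brightest genes, Compound C left 1 at least 1.5-fold below vehicle, and that is Cxcl10. In the group of 222 genes 8 were, Ccl2 and Ccl7 among them. Doxorubicin gave 6 genes of the 58 at least 1.5-fold lower, so a fall was registered for some genes of this group. The group is set by a mean of 12 or more, so these genes do not show whether probe sets as bright as Ccl5 can register one. Compression was not tested.

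**Figure D3:**
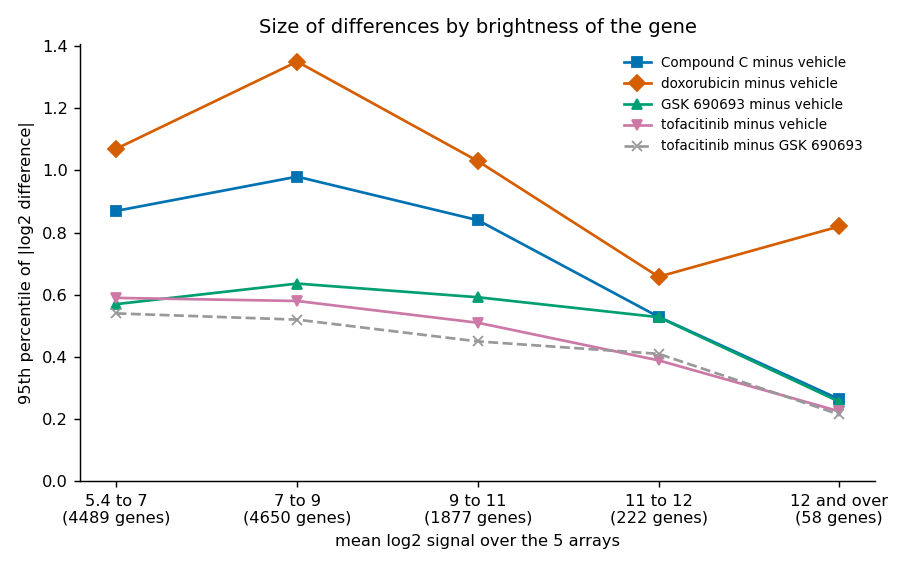
95th percentile of the absolute log2 difference (vertical axis, from 0) in 5 groups of genes by mean log2 signal over the 5 arrays (horizontal axis), for the 4 compounds against vehicle and for tofacitinib against GSK 690693 (dashed). For Compound C it goes from 0.87 in the dimmest group shown to 0.264 in the brightest, whereas doxorubicin stays at 0.82 in the brightest.

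Cxcl1 and Cxcl5 carry the ELR motif ahead of the cysteines and attract neutrophils through CXCR2. Cxcl1 read 8.91 with doxorubicin, 8.42 with vehicle, 8.39 with tofacitinib, 8.23 with GSK 690693 and 8.16 with Compound C. Doxorubicin stands above the rest by 0.49, and the other 4 arrays lie within 0.26 of vehicle. Cxcl5 read 11.74 with tofacitinib, 11.64 with GSK 690693, 11.60 with vehicle, 11.58 with doxorubicin and 11.21 with Compound C. Only Compound C was separated from the others by more than the yardstick, at −0.39 from vehicle. With Compound C, however, 18.8% of all genes read −0.39 or lower against vehicle. For the 222 genes from 11 to 12, that comparison had a standard deviation of 0.276 and a 95th percentile of 0.529 in size. For Cxcl1, 16.7% of all genes read 0.49 or higher with doxorubicin. Neither gene reached 1.5-fold against vehicle with any compound.

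Comparisons between compounds leave the vehicle array out. Tofacitinib against GSK 690693, the pair of arrays closest to each other over all genes, had 3 members at least 1.5-fold higher with tofacitinib (2.31% of all genes) and 0 lower (1.14%). These were Ccl4 at 3.43-fold, Cxcl11 at 2.81-fold and Ccl3 at 1.96-fold, and tofacitinib is itself the highest array for Ccl4. Against Compound C, GSK 690693 was short of 1.5-fold for Ccl4 (−0.15) and Ccl3 (−0.41), and against doxorubicin it was short for Ccl4 (−0.38). GSK 690693 against Compound C had 2 members higher, Ccl2 and Ccl7 (11.2% of all genes), and 2 lower (5.18%), Cxcl11 at 2.45-fold and Cxcl9 at 1.53-fold. Tofacitinib against Compound C had 4 higher (15.3% of all genes), with Ccl4 at 3.10-fold, Ccl7 at 1.96-fold, Cxcl10 at 1.67-fold and Ccl2 at 1.59-fold, and 1 lower (5.5%), Cxcl9 at 1.55-fold.

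Doxorubicin against Compound C had 4 members higher, Ccl3, Cxcl1, Ccl7 and Cxcl10 (15.4% of all genes), and 0 lower (14.9%). The largest of these was Ccl3, at 2.23-fold. GSK 690693 against doxorubicin had 4 members lower (11.3% of all genes), with Ccl3 at 2.97-fold, Cxcl11 at 2.33-fold, Cxcl9 at 2.13-fold and Cxcl1 at 1.60-fold, and 0 higher (16.5%). Tofacitinib against doxorubicin had Ccl4 higher at 2.64-fold, 1 member against 16.8% of all genes, and 2 lower (5.68%), Cxcl9 at 2.16-fold and Ccl3 at 1.52-fold.

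Ccl2 and Ccl7 read alike, but the CC genes that follow them had other patterns. In the RefSeq gene order Ccl2, Ccl7, Ccl11, Ccl12 and Ccl8 follow each other, and the last 3 were singled out here for their position after their values were seen. The eosinophil attractant gene Ccl11 read 8.54 with doxorubicin, 8.00 with Compound C, 7.89 with vehicle, 7.60 with tofacitinib and 7.10 with GSK 690693. GSK 690693 was thus its lowest array, at −0.79, where Ccl2 and Ccl7 had their highest. Ccl8, a further monocyte attractant, read 7.62 with doxorubicin, 7.19 with Compound C, 6.80 with GSK 690693, 6.51 with tofacitinib and 6.48 with vehicle. It was highest with doxorubicin (1.14) and above vehicle with Compound C (0.71), the array that was lowest for Ccl2 and Ccl7. Ccl12 stayed below the filter on all 5 arrays, at 4.03 with vehicle and 5.31 with doxorubicin. In the other CC group, Ccl9, next to Ccl5 in that order and followed by Ccl6, Ccl3 and Ccl4, read 7.35 with vehicle and 6.57 with GSK 690693, a difference of −0.78, beside −0.80 for Ccl3 and −1.42 for Ccl4. The fall was not shared by the whole group, as Ccl5 differed by −0.03 and Ccl6, below the filter, by 0.27.

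**Figure D4:**
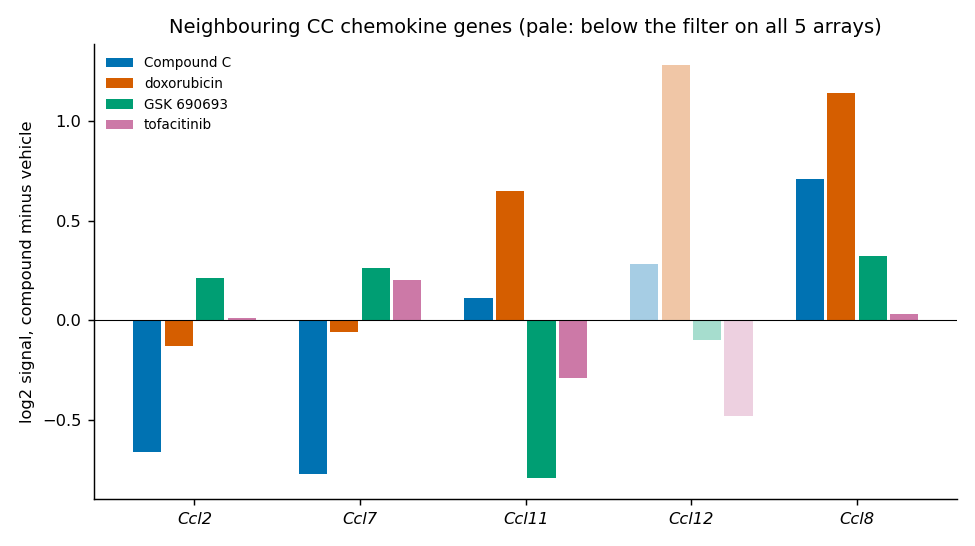
Log2 difference from vehicle (vertical axis) for 5 neighbouring CC chemokine genes in RefSeq order (horizontal axis), 1 bar per compound and no error because each group is 1 array. Ccl2 and Ccl7 are negative with Compound C (−0.66 and −0.77), while Ccl8 is positive (0.71). Pale bars mark Ccl12, which is below the filter.

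Of 27 other chemokine ligand genes, 26 had a single-symbol probe set and 13 passed the filter. With doxorubicin 4 of the 13 were at least 1.5-fold higher and 0 lower, with a median of 0.40 against 0.05 for all genes, of which 11.5% were higher and 14.2% lower. Ccl8 and the neutrophil attractant gene Cxcl3 (1.13) were past 2-fold. Cxcl3 read 7.76 with doxorubicin, 7.01 with tofacitinib, 6.71 with GSK 690693, 6.63 with vehicle and 5.97 with Compound C. It shares with Cxcl1, a member of the same CXC gene group, its highest array, doxorubicin, and its lowest, Compound C. With Compound C, 1 of the 13 was higher and 2 lower, and with GSK 690693 0 were higher and 2 lower, with medians of −0.14 and −0.13. Among all genes 6.06% were higher and 9.99% lower with Compound C, and 2.4% and 3.21% with GSK 690693. Tofacitinib gave 1 of 13 higher and 0 lower, against 2.66% and 2% of all genes, and a median of 0.03.

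Receptor transcripts were mostly dim. Of 22 receptor genes with a single-symbol probe set, 5 passed the filter. Cxcr2, Cxcr3 and Ccr2, receptors of the ligands above, did not, with the highest values at 4.86, 5.05 and 3.83. Cxcr4, the receptor of Cxcl12, read 5.70 with vehicle and 7.37 with doxorubicin (1.67), and it was the only one of the 5 past 1.5-fold with any compound. Glycosaminoglycan, protease and matrix partners were mostly higher with doxorubicin: 8 of 15 that passed the filter were at least 1.5-fold higher and 0 lower, against 11.5% and 14.2% of all genes, and the median was 0.62 against 0.05. Mmp12, a macrophage elastase that cleaves chemokines, read 7.31 with vehicle and 8.31 with doxorubicin. With the other compounds the medians of this list were 0.11 for Compound C, 0.04 for GSK 690693 and 0.10 for tofacitinib.

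Among the transcriptional regulators of chemokine genes, 37 of 41 had a single-symbol probe set and 36 passed the filter. With doxorubicin 13 of the 36 were at least 1.5-fold lower and 1 higher, against 14.2% and 11.5% of all genes, with a median of −0.23 against 0.05. Lowest were the NF-kB inhibitor gene Nfkbia (−3.04), Nfkbiz (−2.76) and the AP-1 subunit gene Jun (−2.65). Next came Cebpb (−2.12), which encodes a factor of cytokine promoters, and Tnfaip3 (−1.72), a brake on NF-kB. On the same array the 10 ligands had a median of −0.04. With tofacitinib 6 of the 36 were lower and 0 higher, against 2% and 2.66% of all genes, shares that centring moves as given above. Usp18, an interferon-stimulated gene whose product restrains the interferon receptor, read 10.87 with vehicle and 8.10 with tofacitinib (−2.77). Irf9 (−1.61) and Stat2 (−1.22), singled out after their values were seen because they belong to the interferon-activated factor ISGF3, were lower too. On that array Cxcl9 differed by −0.60, Cxcl10 by −0.21 and Cxcl11 by −0.13. With Compound C 4 of the 36 were higher and 4 lower, against 6.06% and 9.99% of all genes. The higher ones were Cebpd (1.60), Fos (1.15), Cebpb (0.81) and Atf3 (0.67). The lower ones were Jun (−1.11), Nfkbia (−0.88), Irf9 (−0.72) and Nfkbie (−0.72). With GSK 690693 0 were higher and 2 lower, against 2.4% and 3.21% of all genes.

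Upstream cytokine genes were largely under the filter, with 5 of 11 passing, and Ifnb1, Ifng, Tnf and Il1b did not pass. Il1a, an inducer of NF-kB, read 7.33 with doxorubicin, 7.02 with vehicle, 6.36 with GSK 690693, 6.34 with tofacitinib and 5.99 with Compound C. It was past 2-fold lower with Compound C (−1.03). Il6 read 9.45 with vehicle, 9.41 with doxorubicin, 9.13 with Compound C, 8.52 with tofacitinib and 8.43 with GSK 690693. Like Cxcl9, Il6 was lowest on the GSK 690693 and tofacitinib arrays, at −1.02 and −0.93. The alarmin gene Il33 read 6.55 with vehicle and 7.62 with doxorubicin (1.07), the array that was also highest for Ccl3, Cxcl1 and Cxcl9. Lif went the other way, at 8.04 with vehicle and 7.16 with doxorubicin (−0.88). The 5 cytokine genes that pass had a median of −0.04 with doxorubicin, so the list did not rise as a whole.

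**Figure D5:**
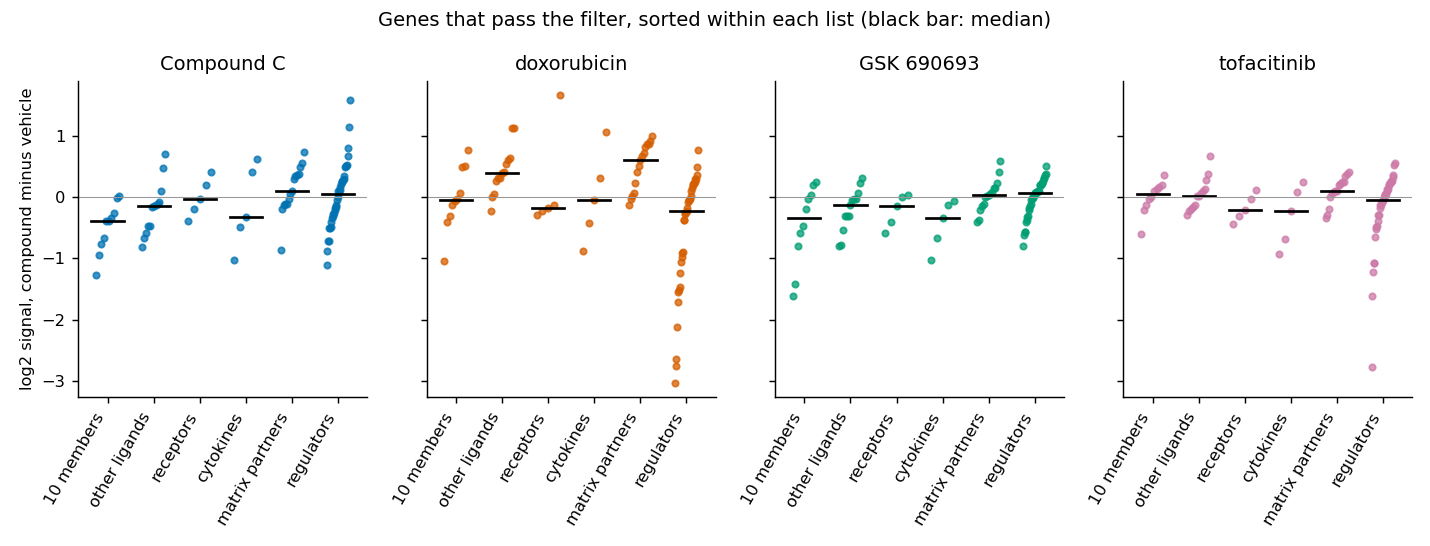
Log2 difference from vehicle (vertical axis) of the genes that pass the filter in 6 lists (horizontal axis), 1 panel per compound, 1 point per gene sorted by value, with the list median as a black bar. The 10 chemokines have medians of −0.39 with Compound C, −0.33 with GSK 690693, −0.04 with doxorubicin and 0.06 with tofacitinib, and the regulators reach −3.04 with doxorubicin.

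For the members at least 2-fold from vehicle with some compound, Cxcl11 and Ccl4, the genes with the most similar set of 4 differences were sought by Euclidean distance among 11514 named genes. Nearest to Cxcl11 were Prnd at a distance of 0.564, Kcnmb1 at 0.615 and Grb14 at 0.685, which stood at −1.45, −1.29 and −1.23 with GSK 690693. With Compound C they stood at −0.84, −0.73 and −0.86, lower than Cxcl11 at −0.33, so GSK 690693 is not the only low array for them. Nearest to Ccl4 were Oasl1 at 0.664, Sytl2 at 0.683 and Htr1b at 0.714. The interferon-stimulated gene Oasl1 stood at −1.66 with Compound C, −1.58 with GSK 690693, −0.86 with doxorubicin and −0.12 with tofacitinib, so it lacks the higher reading of Ccl4 with tofacitinib. None of the 6 is a chemokine gene, and no likeness was tested.

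Markers of the labelled cell type were bright. All 8 fibroblast markers reached the array median on every array, with summed log2 signals of 80.69 with Compound C to 82.74 with GSK 690693. Pdgfrb differed most, at −1.21 with Compound C, the array with the lowest Ccl2, Ccl7 and Cxcl10, and the part of such a shift in the result was not tested. Of 8 macrophage and leukocyte markers with a probe set, 3 passed the filter. The defining markers Ptprc and Adgre1 were below it, between 3.65 and 3.86 and between 3.28 and 3.65. The summed log2 signal of the 8 markers was highest with doxorubicin, at 40.45, followed by 39.25 with Compound C, 38.92 with GSK 690693, 38.46 with tofacitinib and 38.31 with vehicle. Cd68 was higher with doxorubicin, at 7.63 against 6.56 with vehicle, on the array with the highest Ccl3. On that array Cd14, which also passes, differed from vehicle by 0.32. Csf1r passes only through the GSK 690693 array, at 5.52, where it differed from vehicle by 0.59. Its difference of 0.34 with doxorubicin is between values under the array medians, 5.27 and 4.93. With doxorubicin the defining markers Ptprc and Adgre1 differed by −0.21 and 0. The part of macrophages or leukocytes in the result was not tested. Endothelial and epithelial markers, 4 each, had 2 and 3 members that passed the filter, with no value above 6.26.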

How the data were processed

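RNA of 5 cell samples, 1 per treatment, was measured on Affymetrix whole-transcript arrays, from 300 ng of total RNA each per the labels. The deposited values are log2 signals, 1 for each probe set on an array, which the authors made with Affymetrix Expression Console 1.3.1.187 per the submitters' processing notes. Background correction, summarisation, normalization and filtering are not stated in the labels, and the log base was inferred from values of 1.05 to 13.18. If normalization forced the arrays onto a common distribution, a shift shared by most genes would be hidden.

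Groups came from the sample titles. Probe sets with several symbols (1814) were not used, 0 value columns were left over, and each of the 1082 genes with more than 1 probe set was represented by the one with the highest mean. Differences are log2 signal on one array minus that on another, counted at 1.5-fold and 2-fold, and no test was possible. The counting was tested on simulated data. Genes outside the 10 members are named if they pass the filter and differ 2-fold from vehicle with any compound, up to 6 per list, or are among the 3 nearest to such a member. Neighbours, receptors, cytokines and markers named outside this rule were chosen after their values were seen, for their position or role. For Compound C, all regulators past 1.5-fold are named. Gene lists and members were chosen with earlier results of these data known. Alternatives were centred or quantile-normalized arrays, the 4 remaining arrays' median in place of vehicle, no filter or one at the 75th percentile, and the mean of a gene's probe sets. Python 3.11.15, numpy 2.4.6, pandas 2.3.3 and matplotlib 3.10.9 were used.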

Additional observations from a re-analysis of the deposited data

How the results depend on the processing

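The member medians and the counts of members at least 1.5-fold from vehicle stayed within 0.258 and 1.5 times, respectively, with centred arrays, quantile-normalized arrays, no filter or the mean of a gene's probe sets. No filter and the probe-set mean could not change them, since all 10 members pass the filter and each has 1 probe set. With the 4 remaining arrays' median in place of vehicle, doxorubicin had 3 members higher instead of 1, against 7.48% of all genes. It had 0 lower instead of 1 (14.8% of all genes), and tofacitinib had 1 higher instead of 0 (3.21%). The filter at the 75th percentile leaves 8 members because Ccl3 and Ccl4 are dimmer. There doxorubicin had 0 higher (14.2% of all genes) and 0 lower (16.6%), and GSK 690693 had 1 lower instead of 3 (3.96%). The member median with GSK 690693, −0.33, was −0.11 under that filter and −0.19 against the 4 remaining arrays. Of the 10 differences past 1.5-fold, 9 stayed past it with the same sign in every alternative that gave a value. The exception is Ccl4 with doxorubicin. Only centring, quantile normalization and the 4 remaining arrays' median could alter a member's difference. The filters and the probe-set mean leave it unchanged by construction. None of the 10 reversed. No paired analysis was possible because each group holds 1 array, and no array could be left out of a group. The number of arrays limits the precision, and signal over background is unknown for dim probe sets.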
